A study of Homo sapiens with 12 samples.

Results

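The 10 genes described here carry out or control antigen presentation on MHC class II, and they were measured in 6 human lymphoma cell lines on oligonucleotide arrays. They are HLA-DRA, HLA-DRB1, HLA-DPA1, HLA-DPB1, HLA-DQA1, HLA-DMA, HLA-DMB, HLA-DOB, CD74 and CIITA. A probe set, the group of short probes that reads a transcript, was taken when the platform annotation gave it exactly 1 gene symbol and that symbol was a member. This gave 16 probe sets among 22215 tested, and 10 genes among 11963 measured, with no member missing. HLA-DPA1 and CIITA have 3 probe sets each, HLA-DRA and HLA-DQA1 have 2 each, and the others have 1. The HLA genes lie on chromosome 6, CD74 on chromosome 5 and CIITA on chromosome 16.

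The arrays were Affymetrix HG-U133A, 12 in all, with 2 arrays for each line. KM-H2, L1236 and L428 are the Hodgkin lymphoma lines. Namalwa, from a Burkitt lymphoma, and SU-DHL4 and SU-DHL6, from diffuse large B-cell lymphomas, are the B-cell lines. All were cultured in serum-supplemented medium and received no treatment, and the study asked how the Hodgkin lines differ from the B-cell lines. The SU-DHL lines were newly measured and the other 4 were taken from data the submitters had already published, so lymphoma type and dataset overlap in part. Each line is an established culture from 1 patient's tumour, so 3 lines stand for each type. A bulk array does not distinguish fewer expressing cells from less RNA in each cell.

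Class II molecules are pairs of an alpha and a beta chain that display peptides from the endosome to CD4+ T cells. The classical pairs are HLA-DR, HLA-DP and HLA-DQ. The invariant chain CD74 occupies their groove and carries them to the endosome, HLA-DM (HLA-DMA with HLA-DMB) exchanges the remaining CD74 fragment for peptide, and HLA-DO, of which HLA-DOB is the beta chain, restrains HLA-DM in B cells. CIITA is the coactivator that the promoters of the classical class II genes need. B cells express the set constitutively, whereas loss of class II and rearrangements of CIITA have been described in Hodgkin lymphoma.

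Values are log2 signals, so a difference of 1 is a 2-fold change. The median of an array lay between 6.85 and 6.92 and its lower quartile between 5.64 and 5.75. No detection calls accompany the values. A value near that quartile could not be told from background, and a fold that reaches it is too small. Duplicate arrays correlated at r of 0.981 to 0.995 over all probe sets. The SU-DHL6 duplicates were more than 2-fold apart for 465 probe sets, and those of the other lines for 17 to 122. The mean over 4 B-cell markers was 10.7 to 11.3 in the B-cell lines and 6.91 to 7.02 in the Hodgkin lines, and the mean over 4 Hodgkin markers was 6.26 to 6.43 and 8.56 to 10.5, so the labels matched their markers. T and NK cell markers averaged 6.47 to 6.73 over all 6 lines. The 10 myeloid and dendritic cell markers averaged 5.73 to 6.67. FCER1A, the alpha chain of the high-affinity IgE receptor, was high in L1236 alone, at 12.70 against 4.27 to 4.40 elsewhere, and the other 9 markers of that list did not pass in L1236. Of the 4 Hodgkin markers, 2 were lower in L1236 than in the other Hodgkin lines, where 3.07% of all probe sets were. The part of these marker differences in the class II results was not tested.

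**Figure D1:**
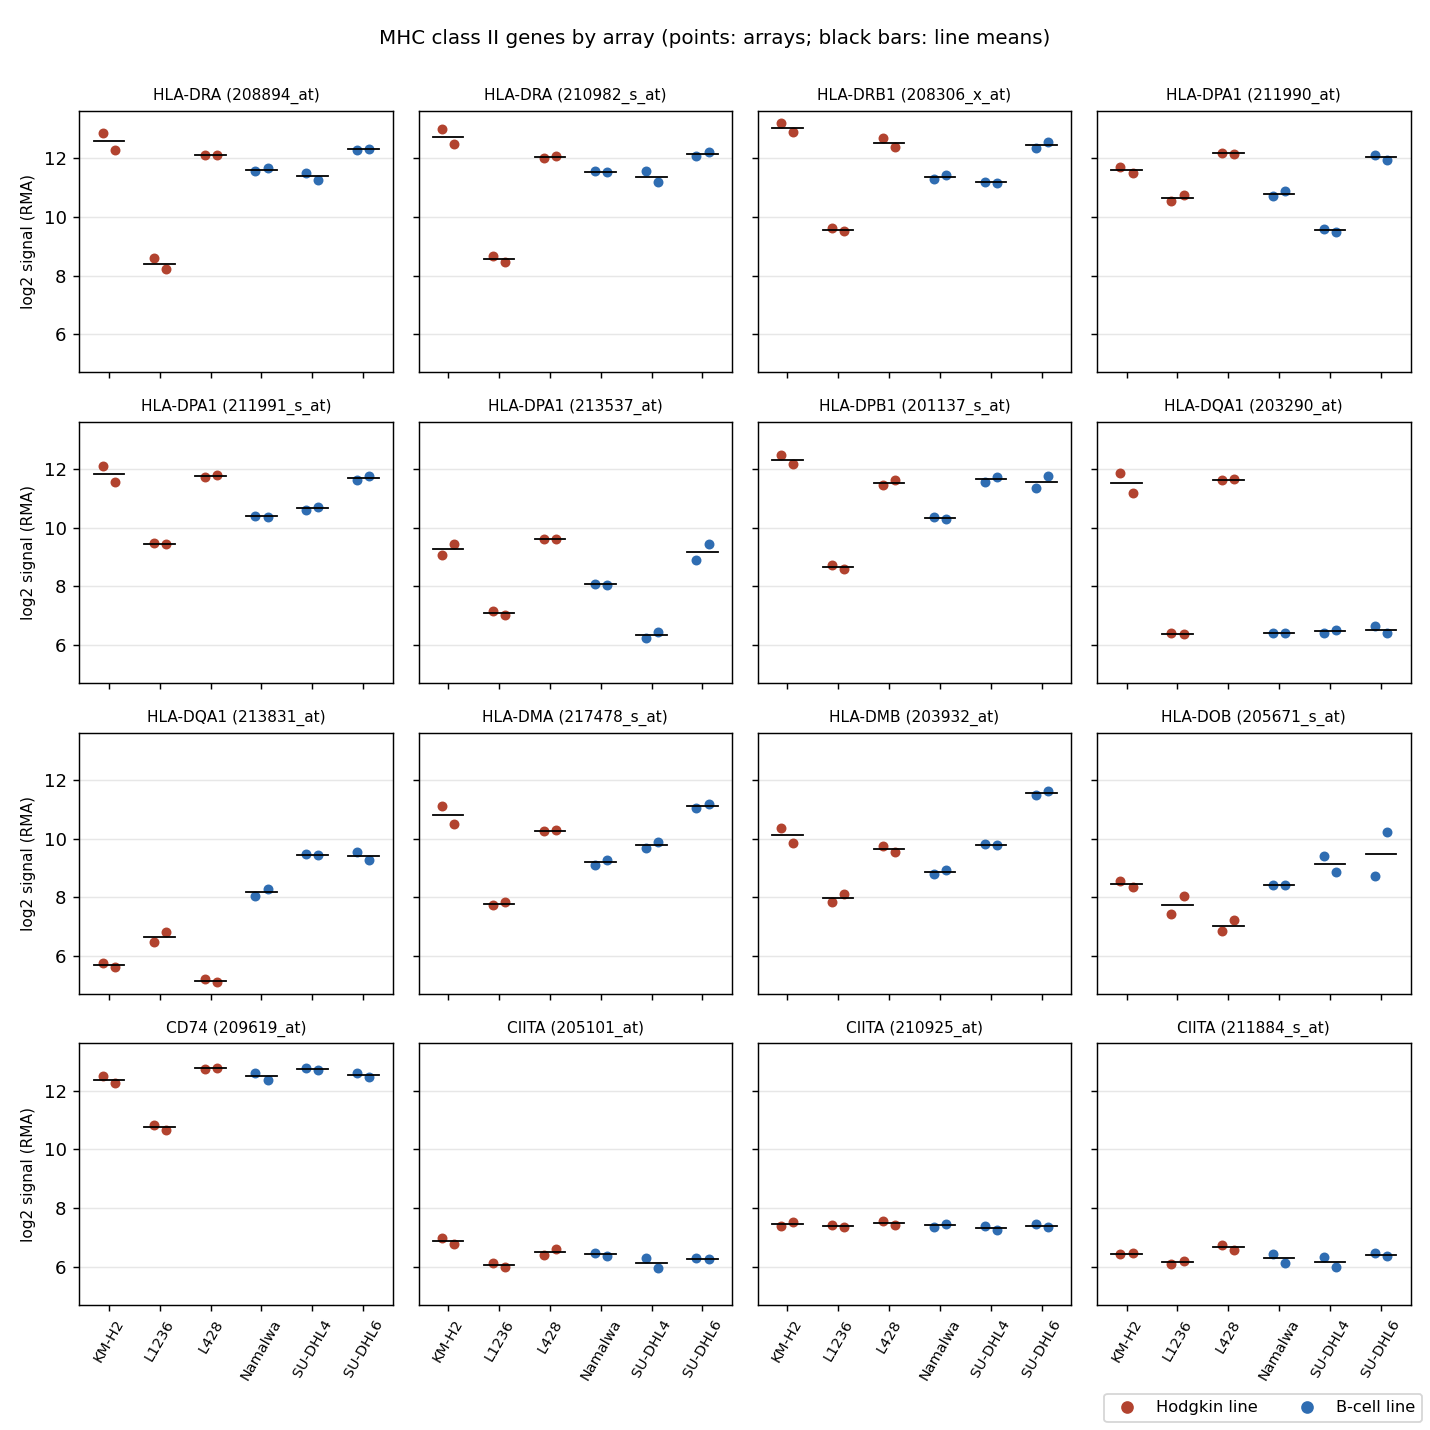
Log2 signal (vertical axis) of the 16 class II probe sets in each line (horizontal axis), with 1 panel per probe set. Points are arrays, black bars are line means, red marks Hodgkin lines and blue marks B-cell lines. L1236 lies below the other 5 lines for both HLA-DRA probe sets, HLA-DRB1, HLA-DPB1, HLA-DMA and CD74, and the 2 HLA-DQA1 panels show opposite orders of the lines.

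The clearest difference in these genes ran within the Hodgkin lines. Between the lymphoma types no member probe set passed, but that test had only 3 line means per type and left large differences open. For HLA-DRA on 208894_at its interval ran from -3.68 to 2.21 on the log2 scale. The HLA-DQA1 probe sets differed between the types by -3.19 on 213831_at and 3.38 on 203290_at without passing. L1236 had 3.52-fold to 15.2-fold lower HLA-DR, HLA-DPB1, HLA-DM and CD74 signal than the mean of KM-H2 and L428. KM-H2 and L428 lay within or above the range of the B-cell lines for HLA-DR and HLA-DP. HLA-DOB was not lower in L1236 than in the other Hodgkin lines, and the differences of CIITA were under 2-fold on dim probe sets.

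HLA-DRA, the alpha chain common to all HLA-DR molecules, showed the pattern on both of its probe sets. On probe set 208894_at the L1236 arrays read 8.61 and 8.21, those of KM-H2 12.87 and 12.30, and those of L428 12.10 and 12.10. The Namalwa arrays read 11.56 and 11.66, those of SU-DHL4 11.50 and 11.27, and those of SU-DHL6 12.28 and 12.32. Every array of L1236 thus lay well below every other array, which ran from 11.27 to 12.87. L1236 was lower than the mean of the other 2 Hodgkin lines, with a log2 difference of -3.93 ± 0.16 (SE, 2 arrays per line), a 15.2-fold difference (adjusted p = 1.34e-07). Probe set 210982_s_at gave -3.83 ± 0.15 (adjusted p = 1.20e-07). In the order of the line means on 208894_at, KM-H2 came first at 12.58, then SU-DHL6 at 12.30, L428 at 12.10, Namalwa at 11.61 and SU-DHL4 at 11.39. None of these neighbours passed the test against each other, although SU-DHL4 was lower than KM-H2 by 1.20 (adjusted p = 0.000745), and on 210982_s_at so were SU-DHL4 by 1.37 and Namalwa by 1.19. The step of 2.98 from SU-DHL4 down to L1236 at 8.41 also passed (adjusted p = 1.41e-06).

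HLA-DRB1 encodes the main HLA-DR beta chain. Its probe set 208306_x_at read 9.63 and 9.51 in L1236, 13.21 and 12.88 in KM-H2, and 12.68 and 12.38 in L428. The B-cell values were 11.28 and 11.43 in Namalwa, 11.21 and 11.15 in SU-DHL4, and 12.35 and 12.55 in SU-DHL6. L1236 was again lowest, and SU-DHL6 sat with the 2 high Hodgkin lines above Namalwa and SU-DHL4. The log2 difference of L1236 from the other Hodgkin lines was -3.22 ± 0.12 (9.30-fold, adjusted p = 8.61e-08). HLA-DRB1 shares long stretches with the other HLA-DRB genes, so this probe set may read several of them. Probe sets annotated to several HLA-DRB genes, which are no members, gave log2 differences of -2.83 (204670_x_at), -3.52 (209312_x_at) and -3.60 (215193_x_at) for L1236. A further such probe set, 221491_x_at, gave -1.26, but it was high only in KM-H2 at 8.86 and read 6.29 in L1236, 6.25 in L428 and 5.61 to 6.20 in the B-cell lines.

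The HLA-DP chains followed with more variation between lines. HLA-DPB1, the beta chain, read 8.72 and 8.61 in L1236, 12.47 and 12.17 in KM-H2, and 11.45 and 11.62 in L428. It read 10.37 and 10.30 in Namalwa, 11.57 and 11.73 in SU-DHL4, and 11.35 and 11.77 in SU-DHL6. L1236 was lowest and Namalwa next, and the remaining 4 lines lay above both. L1236 differed from the other Hodgkin lines by -3.26 ± 0.13 (9.58-fold, adjusted p = 1.34e-07), and Namalwa from the other B-cell lines by -1.27 ± 0.13 (2.41-fold, adjusted p = 0.000175). For HLA-DPA1, the alpha chain, the differences of L1236 were -1.23 on 211990_at, -2.34 on 211991_s_at and -2.35 on 213537_at, all past the threshold. The 3 probe sets agreed on the direction and not on the size.

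HLA-DM also differed between the B-cell lines. HLA-DMA read 7.74 and 7.83 in L1236, 11.12 and 10.51 in KM-H2, 10.25 and 10.28 in L428, 9.12 and 9.26 in Namalwa, 9.69 and 9.88 in SU-DHL4, and 11.06 and 11.17 in SU-DHL6. HLA-DMB read 7.83 and 8.12 in L1236, 10.36 and 9.86 in KM-H2, 9.74 and 9.55 in L428, 8.79 and 8.93 in Namalwa, 9.80 and 9.78 in SU-DHL4, and 11.49 and 11.64 in SU-DHL6. By line mean, both chains were lowest in L1236, next lowest in Namalwa and highest in SU-DHL6. The log2 difference of L1236 from the other Hodgkin lines was -2.76 ± 0.15 for HLA-DMA (6.76-fold, adjusted p = 7.91e-07) and -1.90 ± 0.14 for HLA-DMB (3.74-fold, adjusted p = 7.83e-06). SU-DHL6 exceeded the other B-cell lines by 1.63 ± 0.15 for HLA-DMA (3.09-fold) and 2.24 ± 0.14 for HLA-DMB (4.71-fold). HLA-DMB was the only member probe set that was higher in SU-DHL6 than in each of the other 5 lines, every pair at the threshold used for line contrasts (0.387% of all probe sets). All those lines but SU-DHL4 belong to the published dataset, so against them line and dataset cannot be told apart.

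CD74 was at nearly the same level in all lines but L1236. It read 10.84 and 10.67 in L1236 and between 12.26 and 12.79 in the other 10 arrays. The 5 other lines did not pass the test against their neighbours in order, and L1236 lay 1.62 below the lowest of them, KM-H2 (adjusted p = 6.59e-06). Against the mean of KM-H2 and L428 the log2 difference was -1.82 ± 0.10 (3.52-fold, adjusted p = 1.22e-06).

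Counted over the members, 11 of the 16 probe sets, from 8 genes, were lower in L1236 than in the other Hodgkin lines, with an adjusted p under 0.05 and at least a 2-fold difference. By the same rule 3.07% of all probe sets were lower. A single member probe set, HLA-DQA1 213831_at, was higher in L1236, where 3.3% of all probe sets were. The median log2 difference of the 16 was -2.12, beside -0.02 over all probe sets. KM-H2 and L428 entered each other's comparison together with L1236, so their counts carry the same low line. KM-H2 had 8 member probe sets higher and 0 lower (background 3.61% and 3.41%), and L428 had 9 higher and 1 lower, HLA-DQA1 213831_at at values near background (background share 2.91% and 2.7%). Set directly against L428, KM-H2 differed for 1 of 16 member probe sets, HLA-DOB, where 7.82% of all probe sets differed. KM-H2, L1236 and L428 all belong to the published dataset, so none of these contrasts crosses the datasets. The labels do not tell whether duplicates are separate cultures, and the p-values of line contrasts reflect only the spread between them, which may be technical.

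**Figure D2:**
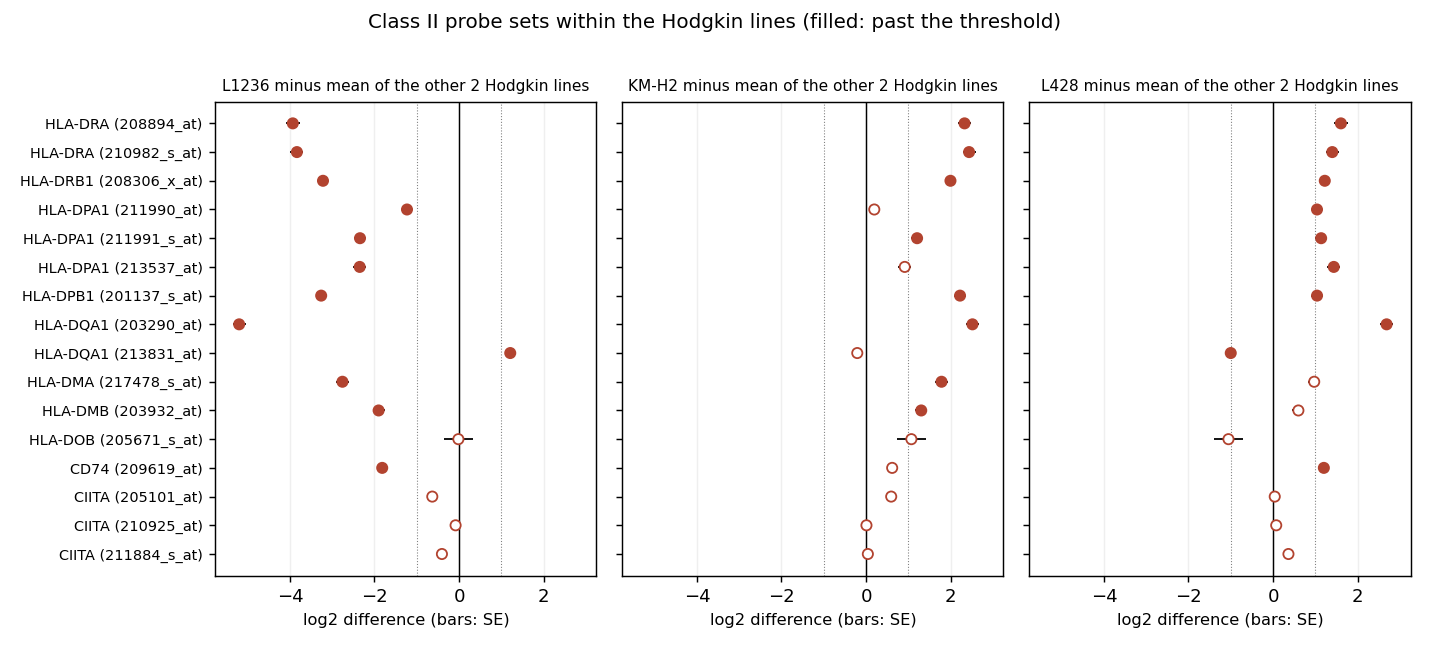
Log2 difference (horizontal axis) of each Hodgkin line from the mean of the other 2, for the 16 class II probe sets (vertical axis). Bars are SE from the fit on all 12 arrays, filled points passed the threshold and dotted lines mark a 2-fold difference. In L1236, 11 probe sets are filled on the lower side and HLA-DQA1 213831_at alone on the higher side, and HLA-DOB and the 3 CIITA probe sets are open.

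L1236 was also low beside the B-cell lines. Of the 16 probe sets, 7 were higher in Namalwa than in L1236 (5.3% of all probe sets), 10 in SU-DHL4 (6.55%) and 12 in SU-DHL6 (5.28%). For HLA-DRA on 208894_at, Namalwa was 3.20 above L1236 on the log2 scale, SU-DHL4 2.98 and SU-DHL6 3.89. Both HLA-DRA probe sets, HLA-DRB1, HLA-DPB1, HLA-DMA and CD74 were lower in L1236 than in each of the other 5 lines. These are 6 of 16 member probe sets, beside 0.41% of all probe sets. HLA-DMB missed that count because its step below Namalwa, 0.89, was under 2-fold (adjusted p = 0.00261). Namalwa shares the published dataset with L1236, but SU-DHL4 and SU-DHL6 belong to the new one. Against the SU-DHL lines, and so in part in the count over the other 5 lines, line and dataset cannot be told apart.

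HLA-DOB behaved differently from HLA-DMA and HLA-DMB. Its arrays read 8.54 and 8.36 in KM-H2, 7.42 and 8.03 in L1236, and 6.84 and 7.22 in L428. They read 8.43 and 8.41 in Namalwa, 9.40 and 8.88 in SU-DHL4, and 8.73 and 10.21 in SU-DHL6. L428 was lowest and SU-DHL6 highest, but the SU-DHL6 duplicates lay far apart and no neighbouring lines in the order passed the test. Farther apart in the order, L1236 was lower than SU-DHL4 by 1.41 and than SU-DHL6 by 1.74, and L428 was lower than Namalwa by 1.39, SU-DHL4 by 2.11 and SU-DHL6 by 2.44, all past the threshold. L1236 differed from the other Hodgkin lines by -0.02 ± 0.35 (adjusted p = 0.987), an SE larger than that of any other member probe set. KM-H2 was higher than L428 by 1.42 (adjusted p = 0.0299).

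CIITA signal varied little on any of its 3 probe sets. Probe set 205101_at read 6.97 and 6.78 in KM-H2, 6.13 and 5.97 in L1236, 6.38 and 6.62 in L428, 6.47 and 6.37 in Namalwa, 6.29 and 5.94 in SU-DHL4, and 6.29 and 6.27 in SU-DHL6. Both KM-H2 arrays lay above all others by a small margin, and L1236 and SU-DHL4 were lowest and overlapped. The log2 difference of L1236 from the other Hodgkin lines was -0.63 ± 0.12 (adjusted p = 0.00332), under the 2-fold minimum. Probe set 211884_s_at gave -0.41 ± 0.12 (adjusted p = 0.0391) and 210925_at -0.08 ± 0.08 (adjusted p = 0.629). On all 3 probe sets no neighbouring lines in the order passed the test. Values of 205101_at and 211884_s_at lay below the array median in every array but the first of KM-H2 on 205101_at. A fold is understated at such values, so a larger change of the transcript may not have been detectable on these probe sets. Probe set 210925_at read 7.24 to 7.55, above the median of every array.

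Between the lymphoma types, no member probe set passed the test on the 6 line means. By limma at an adjusted p under 0.05 the count was 0 of 16, beside 1.23% of all probe sets, and 2 of 16 had an unadjusted p under 0.05, beside 14.4%. The median log2 difference, Hodgkin minus B-cell, was -0.14 over the 16 and 0 over all probe sets. HLA-DRA on 208894_at averaged 11.03 ± 2.28 (SD, n = 3 lines) in the Hodgkin lines and 11.77 ± 0.48 in the B-cell lines. The difference was -0.73 with a 95% interval of -3.68 to 2.21 (adjusted p = 0.818), so a large change in either direction lay within the error. For HLA-DRB1 the difference was 0.06 (adjusted p = 0.985), and for CD74 it was -0.63 (adjusted p = 0.654). The intervals of CIITA were narrow, -0.36 to 0.77 on 205101_at, -0.09 to 0.23 on 210925_at and -0.25 to 0.51 on 211884_s_at. Values of 205101_at and 211884_s_at lay mostly below the array median, where a fold is understated. Line means on 210925_at spanned only 0.19. These intervals therefore bound the signal and not the transcript. With L1236 left out, the HLA-DRA differences were 0.58 and 0.71, the HLA-DPB1 difference was 0.74 and the HLA-DMA difference 0.51, all higher in the Hodgkin lines and none past the threshold. In the same setting CD74 was at -0.02, HLA-DMB at -0.20 and HLA-DOB at -1.27, and none of them passed.

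**Figure D3:**
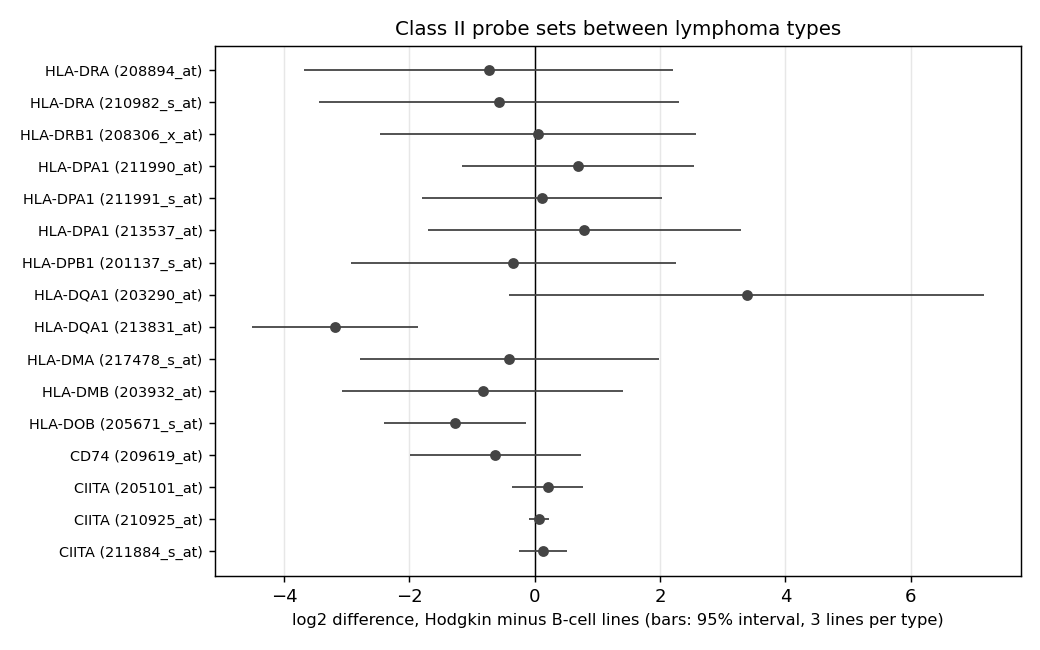
Log2 difference of the Hodgkin lines from the B-cell lines (horizontal axis) for the 16 class II probe sets (vertical axis), from 3 line means per type. Points are differences and bars 95% intervals, unadjusted. The intervals of HLA-DQA1 213831_at and HLA-DOB lie below 0, and that of HLA-DQA1 203290_at reaches from -0.41 to 7.17.

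HLA-DQA1, the HLA-DQ alpha chain, gave opposite readings on its 2 probe sets. Probe set 203290_at read 11.86 and 11.20 in KM-H2 and 11.63 and 11.66 in L428, and between 6.38 and 6.64 in the other 8 arrays. Probe set 213831_at read 8.05 and 8.27 in Namalwa, 9.49 and 9.43 in SU-DHL4, and 9.55 and 9.29 in SU-DHL6. It read 5.75 and 5.62 in KM-H2, 6.46 and 6.80 in L1236, and 5.20 and 5.11 in L428. The lines that were high on the first were the lowest on the second. L1236 was at the low level on the first and between the types on the second. Against the other Hodgkin lines it was lower by 5.20 on 203290_at, a 36.7-fold difference (adjusted p = 1.84e-08), and higher by 1.21 on 213831_at (adjusted p = 5.53e-05). On 203290_at L1236 read 6.39, below the array median and level with the B-cell lines at 6.42 to 6.52. Whether that level reads the transcript was not tested, so the fold may be misstated. On 213831_at KM-H2 and L428 lay at or below the floor of 5.71, the lower quartile of all values, so no fold is given. With values raised to that floor the difference was 0.91, under the 2-fold minimum. Over the 6 line means the probe sets correlated at r = -0.82. The difference between them spanned 9.47 on the log2 scale over the lines, from SU-DHL4 to L428, while it moved by at most 0.54 between duplicate arrays.

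Between the types, 213831_at was lower in the Hodgkin lines, with a log2 difference of -3.19 ± 0.53, with an interval of -4.52 to -1.86. With values raised to the floor it was -2.99 (adjusted p = 0.131). Its unadjusted p was 0.00141 and its adjusted p 0.0739. It was the only member probe set whose line means did not overlap between the types, where 22.6% of all probe sets did not overlap. On 203290_at the difference was 3.38 ± 1.50 (adjusted p = 0.393), with KM-H2 and L428 high and L1236 at the level of the B-cell lines. Without L1236 it was 5.11 (adjusted p = 0.0012). The mean of the 2 probe sets gave a difference of 0.10 (adjusted p = 0.96). HLA-DQA1 is among the most variable human genes in sequence, and whether the probes of each set match the allele of each line was not tested.

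A probe set annotated to both HLA-DQA2 and HLA-DQA1, 212671_s_at, is no member and may read either gene. It stood at 10.31 in Namalwa, 10.56 in SU-DHL4, 11.80 in SU-DHL6, 12.32 in KM-H2, 7.72 in L1236 and 11.54 in L428. All lines but L1236 were high on it. L1236 was lower than the other Hodgkin lines by 4.21 on the log2 scale (adjusted p = 1.39e-07), and the types differed by -0.37 (adjusted p = 0.926). HLA-DQB1, the partner chain, likewise had probe sets that disagreed. Its probe set 209823_x_at read 11.23 in KM-H2, 7.28 in L1236, 11.75 in L428, 8.22 in Namalwa, 8.75 in SU-DHL4 and 10.34 in SU-DHL6, while 209480_at stayed between 4.39 and 4.97 in the Hodgkin lines and at 5.04, 7.24 and 7.50 in the B-cell lines.

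The authors' deposited table, which compares the types over the same arrays, called 3 of the 16 member probe sets at an adjusted p under 0.05, beside 13.4% of all its probe sets. In the authors' deposited table HLA-DQA1 203290_at was higher in the Hodgkin lines by 3.38 (adjusted p = 0.0478) and 213831_at lower, with a difference of -3.19 (adjusted p = 0.000158). HLA-DOB was lower too, at -1.27 (adjusted p = 0.0396 in the authors' deposited table). These are the same differences as from the line means, where the adjusted p of HLA-DOB was 0.296. Treating the 12 arrays as independent samples gave adjusted p-values of 0.0477, 0.000157 and 0.0395 for these 3 probe sets by limma. A call of HLA-DQA1 as higher or lower in the Hodgkin lines therefore turned on the probe set chosen.

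**Figure D4:**
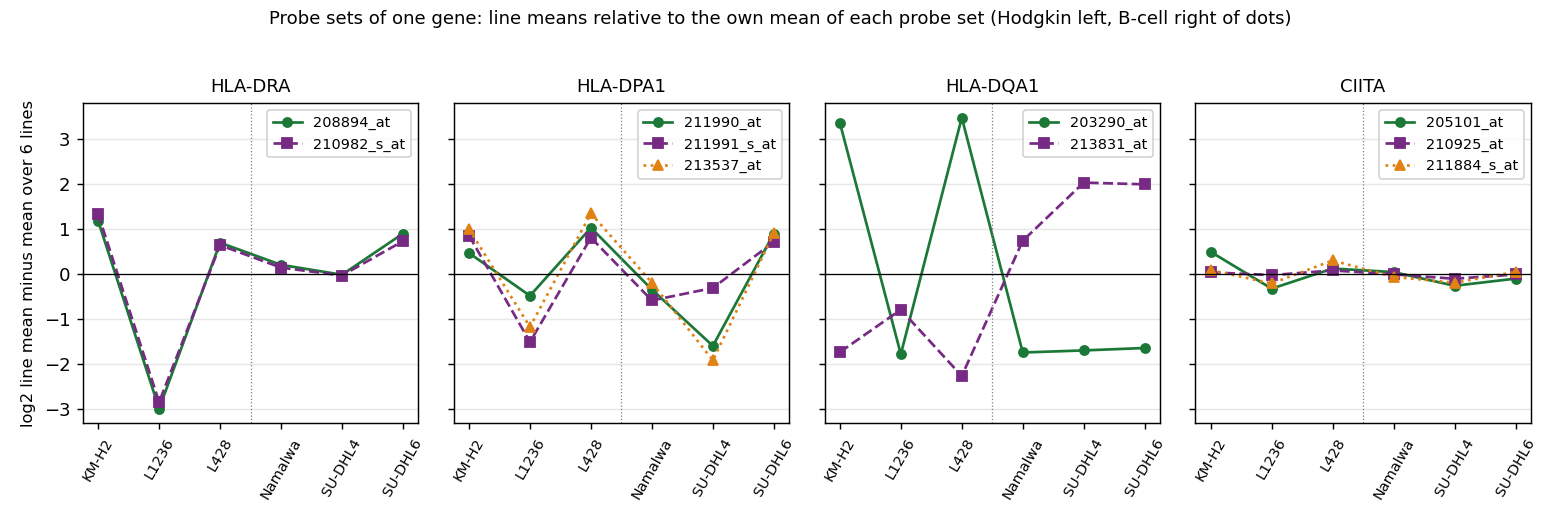
Line mean of each probe set minus its own mean over the 6 lines (vertical axis, log2) for the 4 genes with several probe sets, with Hodgkin lines left and B-cell lines right of the dotted line. The 2 HLA-DRA curves coincide, the HLA-DPA1 curves part at L1236 and SU-DHL4, and the CIITA curves stay near 0. The HLA-DQA1 curves lie on opposite sides of 0 in every line but L1236, which is below 0 on both.

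The other genes with several probe sets differed less. The HLA-DRA probe sets correlated at r = 0.997 over the 6 line means, and their difference spanned 0.32 over the lines. For HLA-DPA1 the probe sets disagreed most in SU-DHL4 and L1236. L1236 was at -0.48 relative to the mean of 211990_at over the lines, at -1.51 relative to that of 211991_s_at and at -1.17 relative to that of 213537_at. In SU-DHL4 the values were -1.59, -0.31 and -1.91. Probe set 211990_at read 9.60 and 9.48 in SU-DHL4 and 10.71 and 10.87 in Namalwa, while 211991_s_at read 10.61 and 10.72 in SU-DHL4 and 10.40 and 10.38 in Namalwa. SU-DHL4 was thus below Namalwa on the first and not below it on the second. Against the other B-cell lines SU-DHL4 was lower by 1.88 on 211990_at (adjusted p = 3.42e-06) and by 2.28 on 213537_at (adjusted p = 1.62e-05). On 211991_s_at the difference was -0.37 (adjusted p = 0.104). The difference between 211990_at and 211991_s_at spanned 2.31 over the lines, beside at most 0.37 between duplicates. Probe set 211990_at in SU-DHL4 was lower than in each of the other 5 lines (0.257% of all probe sets), a reading that 211991_s_at did not share. All those lines but SU-DHL6 belong to the published dataset, so against them line and dataset cannot be told apart.

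Among the B-cell lines SU-DHL6 was high and Namalwa low for several members. SU-DHL6 had 6 of 16 probe sets higher than the mean of Namalwa and SU-DHL4 (background 1.61%). They were HLA-DRB1 at 1.18, the 3 of HLA-DPA1 at 1.16 to 1.97, HLA-DMA and HLA-DMB. Namalwa had 4 lower (background 1.58%), namely HLA-DPB1, HLA-DMA, HLA-DMB at -1.82 and HLA-DQA1 213831_at at -1.28. SU-DHL4 had 2 lower, both of HLA-DPA1 (background 1.57%). Namalwa belongs to the published dataset and the SU-DHL lines to the new one, so for Namalwa line and dataset cannot be told apart. Within the new dataset, SU-DHL4 was lower than SU-DHL6 for 6 of 16 (background 2.03%), with log2 differences of -1.27 for HLA-DRB1, -2.83 to -1.02 for the HLA-DPA1 probe sets, -1.33 for HLA-DMA and -1.77 for HLA-DMB. With the published dataset alone, HLA-DPB1, HLA-DMA and HLA-DMB turned from lower to higher in the Hodgkin lines, by 0.50, 0.43 and 0.38, none past the threshold.

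As a description over only 6 line means, which share duplicates, datasets and the low value of L1236, HLA-DRA on 210982_s_at correlated with HLA-DRB1 at r = 0.96, with HLA-DPB1 at 0.93, with HLA-DMA at 0.92, with CD74 at 0.89 and with HLA-DMB at 0.75. HLA-DQA1 gave 0.53 on 203290_at and -0.001 on 213831_at, and HLA-DOB gave 0.28. The probe sets of some genes spread widely, with 0.45 on 211990_at, 0.91 on 211991_s_at and 0.64 on 213537_at for HLA-DPA1 and 0.73 on 205101_at, 0.36 on 210925_at and 0.66 on 211884_s_at for CIITA. Among 1159 other genes that vary by at least 2 on the log2 scale, those most like HLA-DRA were PFN2 (r = 0.96), LSP1 (0.94), EIF4EBP1 (0.93), MSN (0.92) and EIF2D (0.91). Those most like CIITA on 210925_at, whose line means span only 0.19, were GCA (0.96), HLA-F (0.96), GBE1 (0.95), LOC730101 (0.93) and AGPS (0.92).

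Promoters are shown for the 4 members that hold a shared 9-base word. Of these, HLA-DRB1, HLA-DMA and HLA-DMB were lower in L1236 than in the other Hodgkin lines and HLA-DOB was not. RefSeq promoters (GRCh38.p14, 250 bases before to 50 after the start) were matched for 8 of the 10 members. HLA-DRA and CIITA were not among them. Class II promoters are known to carry an X box and a Y box. The Y box letters ATTGG, searched on both strands, occurred in 7 of the 8 and in 34.6% of all 35116 promoters. An X box written CCTNGNNAC was in 2 of the 8, HLA-DMB and HLA-DPA1, and in 15.2% of all promoters. It was followed by ATTGG at 10 to 35 bases in 0 of the 8 and 0.407% of all. The 8 members have 9 promoter entries, and the X box match of HLA-DPA1 lay only in its entry at chr6:33080699-33080998. The search allowed no mismatch, so a count of 0 does not show that these promoters lack the boxes. A 9-base word chosen from the members' own promoters, CTGATGATG, was in 4 of the 8 and in 0.271% of all. With at most 35 bases between, it was followed by ATTGG in 5 promoters of the table (0.0142%). They belong to HLA-DRB1, HLA-DMA, HLA-DOB, THBS3 and LOC112267892, with 19, 20 and 18 bases between in the 3 members. HLA-DPB1 and CD74, also lower in L1236, do not hold the word in this window. In HLA-DMB the X box letters, CCTAGTAAC, end on the first base of the word, so the word and the X box adjoin there. The word was picked for being shared, so its share among the members is a description only. Each sequence runs 5′ to 3′ on the strand of its gene, the minus strand of chromosome 6, and capitals mark CTGATGATG and ATTGG or its reverse complement CCAAT. HLA-DRB1 spans chr6:32589799-32590098, HLA-DMA chr6:32953048-32953347, HLA-DMB chr6:32940979-32941278 and HLA-DOB chr6:32816953-32817252.
HLA-DRB1: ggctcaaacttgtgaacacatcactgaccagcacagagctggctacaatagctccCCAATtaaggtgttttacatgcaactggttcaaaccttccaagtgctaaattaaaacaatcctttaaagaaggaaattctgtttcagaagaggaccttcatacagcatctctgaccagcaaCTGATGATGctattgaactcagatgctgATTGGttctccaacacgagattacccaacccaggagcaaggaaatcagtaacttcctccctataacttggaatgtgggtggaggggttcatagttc
HLA-DMA: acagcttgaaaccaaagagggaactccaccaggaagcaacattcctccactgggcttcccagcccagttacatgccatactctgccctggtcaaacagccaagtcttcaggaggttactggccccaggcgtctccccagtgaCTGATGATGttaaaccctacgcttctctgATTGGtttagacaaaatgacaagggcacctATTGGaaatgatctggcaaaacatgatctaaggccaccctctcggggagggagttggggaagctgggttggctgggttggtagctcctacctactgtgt
HLA-DMB: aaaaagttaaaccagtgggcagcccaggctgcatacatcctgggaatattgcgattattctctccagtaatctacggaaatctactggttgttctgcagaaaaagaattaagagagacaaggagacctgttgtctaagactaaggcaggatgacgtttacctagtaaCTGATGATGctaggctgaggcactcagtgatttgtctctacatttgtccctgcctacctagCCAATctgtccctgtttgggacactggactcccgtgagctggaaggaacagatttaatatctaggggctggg
HLA-DOB: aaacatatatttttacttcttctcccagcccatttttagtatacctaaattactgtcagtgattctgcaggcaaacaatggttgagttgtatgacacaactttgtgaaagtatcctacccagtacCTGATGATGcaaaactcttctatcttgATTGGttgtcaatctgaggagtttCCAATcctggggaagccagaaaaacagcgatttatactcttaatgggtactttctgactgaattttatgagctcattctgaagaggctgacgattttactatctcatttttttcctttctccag

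The promoter of HLA-DOB holds the word and ATTGG at nearly the same spacing as those of HLA-DRB1 and HLA-DMA. In L1236 against the other Hodgkin lines, HLA-DOB differed by -0.02 ± 0.35, HLA-DRB1 by -3.22 and HLA-DMA by -2.76. HLA-DOB in L1236 was lower than in SU-DHL4 by 1.41 and in SU-DHL6 by 1.74, lines of the other dataset. A relation of the word to these levels was not tested. A match in letters is not evidence of binding.

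Genes around the class II pathway were counted from lists, with a gene read by its probe set of highest mean. Over all probe sets, 1.23% were called between the types. In L1236 against the other Hodgkin lines, 6.38% were called in either direction. For lists this short a count of 0 is near these shares and is no result about their genes. Of 7 factors that bind class II promoters (RFX5, RFXAP, RFXANK, CREB1, NFYA, NFYB and NFYC), 0 were called between the types and 0 in L1236, with a median L1236 difference of -0.13 beside -0.02 over all genes. RFX5, a subunit of the RFX complex on the X box, differed by -0.70 in L1236 (adjusted p = 0.00689, under 2-fold). Of the 6 coactivators that CIITA uses, 0 were called in either comparison. Of 9 measured regulators of CIITA, SPI1, a transcription factor of myeloid and B cells, was lower in the Hodgkin lines by 1.63 on the log2 scale (adjusted p = 0.0499). In L1236, PAX5, the B-cell identity factor, was higher than in the other Hodgkin lines by 3.81 (adjusted p = 1.72e-08), at 9.66 against 5.88 in KM-H2 and 5.83 in L428 and 9.81 to 10.38 in the B-cell lines. EZH2, a histone methyltransferase, was lower there, with a difference of -1.23 (adjusted p = 9.50e-06). L1236 thus had B-cell-like PAX5 signal together with the lowest HLA-DR signal, and their relation was not tested.

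Downstream steps showed mixed calls in L1236, where 3.3% of all probe sets were called higher and 3.07% lower. Of 7 measured genes of endosomal proteolysis and reduction, the cathepsins CTSB at 1.52 and CTSC at 1.19 were higher and CTSS, the cathepsin that trims CD74, was lower at -1.61 (adjusted p = 4.27e-05). Of 11 genes of class II turnover and transport, RAB7A, a late endosome GTPase, was higher at 1.40. Of 8 genes of interferon-gamma signalling, which induces CIITA, JAK2 was higher at 1.59 and the receptor chain IFNGR1 lower at -1.35. Of 7 costimulation and ligand genes, the costimulatory CD86 at 2.22, CD40 at 1.04 and the adhesion ligand CD58 at 1.20 were higher. The median of the 7 was 0.84. CD58 read 10.26 in L1236, 10.37 in L428 and 7.74 in KM-H2, so L1236 was above KM-H2 only. CD86 read 10.74 in L1236, 9.74 in L428 and 7.32 in KM-H2. L1236 therefore had higher CD86 and CD40 beside lower class II. Of 11 MHC class I genes, HLA-B at -1.71, HLA-C at -1.34 and HLA-F at -1.02 were lower and 0 were higher, with a median of -0.14. Between the types, where 1.23% of all probe sets were called, ICAM1, an adhesion molecule, was the 1 gene of the 7 costimulation genes called. It was higher in the Hodgkin lines by 1.77 (adjusted p = 0.0288). None of the proteases, turnover, interferon-gamma or class I genes was called, although the 11 class I genes had a median difference of 0.99. Of 4 other class II chains measured, HLA-DQB1 at -3.39 and HLA-DRB4 at -1.62 were lower in L1236. Among the Hodgkin lines HLA-DRB4 was high only in KM-H2 at 10.50, and read 8.01 in L428 and 7.64 in L1236. It read 7.59 in SU-DHL4, 9.57 in Namalwa and 10.50 in SU-DHL6.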

How the data were processed

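The authors deposited log2 values normalised by RMA in R 2.10.1, per the submitters' processing notes, made from 5 ug of total RNA per the labels' protocols. The RMA settings were not stated there. The authors' deposited table gives their p-values, adjusted p-values and log2 difference of the types. It does not tell how duplicates entered.

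Of 22283 probe sets, 68 controls were left out, and 19065 of the 22215 tested have 1 symbol. Of these, 19053 matched a RefSeq gene (GRCh38.p14) by Entrez identifier and 0 changed symbol. All other p-values come from limma 3.58.1 in R 4.3.3, two-sided, adjusted by Benjamini-Hochberg over the 22215. Types were compared on 6 line means, called at 0.05. Each line was set against the other 2 of its type, and each pair of lines compared, on 12 arrays with a coefficient per line, called at 0.05 and a log2 difference of 1. Scripts were tested on simulated data. All member probe sets are named. In lists, called genes and those of smallest p are named. Members and lists were chosen with earlier results of these data known, and the 9-base promoter word after its letters were seen. Sets reading several genes were left out of the members. The number of arrays limits the precision.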

Additional observations from a re-analysis of the deposited data

How the results depend on the processing

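In the L1236 contrast 11 class II probe sets were called lower and 1 higher whichever array was left out. Values near background, the 3 lines per type and the 2 arrays per line limit the rest. Replicate numbers did not pair arrays: over 15 pairs of lines, same-numbered deviations correlated at r from -0.44 to 0.30 and 4 exceeded 0.1. With the replicate number as a block, no class II count of the line contrasts moved by over 1.5 times.

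Between the types, 273 probe sets were called. The count was 45 with dataset as a block, 46 in the published dataset alone, 85 with low values raised to a floor of 5.71, 1605 with line as a random block, 2996 with 12 independent arrays and 2546 when these had the replicate block. It was 42 to 244 without 1 line (146 without Namalwa, 42 without SU-DHL4, 66 without SU-DHL6, 153 without L1236 and 86 without L428), and 212 to 273 without 1 array. Class II probe sets called higher were 0, and 1 with independent arrays and 0 to 1 without 1 line, the 1 being without L1236. Those called lower were 0, and 1 with line as a random block, 2 with independent arrays, 1 with the replicate block and 1 without dim probe sets, where HLA-DQA1 213831_at had an adjusted p of 0.0489. With dataset as a block or the published dataset alone, HLA-DPB1 (0.504), HLA-DMA (0.432) and HLA-DMB (0.381) turned from lower to higher. Without 1 line or 1 array, the difference of the types ranged from -1.511 to 0.576 for HLA-DRA 208894_at, from -1.383 to 0.707 for HLA-DRA 210982_s_at, from -0.608 to 1.129 for HLA-DRB1 208306_x_at, from -0.29 to 0.892 for HLA-DPA1 211991_s_at, from -1.083 to 0.744 for HLA-DPB1 201137_s_at and from -1.002 to 0.511 for HLA-DMA 217478_s_at. The cause of these shifts was not tested.

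Class II probe sets lower in L428, 1 in the fit reported, were 2 with an intensity trend, 0 with the floor, 0 with quantile normalization repeated and 0 to 2 without 1 array (0 without KM-H2 replicate 1, L1236 replicate 2 or L428 replicate 2, and 2 without either SU-DHL6 array). Those higher in L1236 were 0 with the floor, which raises the values below it. With no minimum difference, SU-DHL4 had 2 higher and 4 lower, and SU-DHL6 10 higher. Without 1 array, KM-H2 had 8 to 9 higher, L428 6 to 10 higher, SU-DHL6 6 to 7 higher and Namalwa 4 to 5 lower.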
